A study of Homo sapiens with 20 samples.

Results

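The comparison described here sets xenograft tumors of the human rhabdomyosarcoma line SJRH30 that carry a TLE3 knockout against xenograft tumors of the human rhabdomyosarcoma line RD that carry a TLE3 knockout. It uses 9 of the 20 RNA-seq libraries of the study, SJRH30 knockout replicates 1 to 5 and RD knockout replicates 1 to 4. The fifth RD knockout library was left out as shallow. It has values above 0 in 32105 genes, against 39833 to 41856 in the other RD knockout libraries, and 32.4% of its normalized counts on mitochondrial genes. The study grew both lines in NOD/SCID mice, each with a TLE3 knockout and with a non-targeting control, 5 tumors of each kind. Tumors were taken at the time when the control tumors had reached the size limit and were frozen, so the knockout tumors were not collected at a size of their own. The 9 tumors thus share the knockout, the host strain and the way of collection and differ in the line. The labels give no guide, clone, mouse or litter, and they name a pair of RNA extraction kits without saying which served which tumor. They do not say that each tumor came from its own mouse, so p-values measure the spread between libraries, which may in part be technical. Libraries of control tumors, SJRH30 replicates 1, 2, 4 and 5 and RD replicates 1 to 5, serve beside them as a second comparison of the lines that shares no library with the first.

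Rhabdomyosarcoma is a tumor of cells that have begun the skeletal muscle program and stall before they become muscle fibres. SJRH30 is a line of the fusion-positive, alveolar kind, in which a translocation joins the DNA-binding part of PAX3 to the activating part of FOXO1, and the fused protein switches on its own set of target genes. SJRH30 is also known for extra copies of a stretch of the long arm of chromosome 12 that holds CDK4 and GLI1. RD is a line of the fusion-negative, embryonal kind, driven by mutated RAS and known for extra copies of MYC. TLE3 is a corepressor of the Groucho family, which binds transcription factors such as TCF/LEF, HES and RUNX proteins and silences their targets. Values below are the authors' normalized counts, and differences are on the log2(value + 1) scale, SJRH30 knockout minus RD knockout, so a positive difference means higher in SJRH30 knockout tumors.

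TLE3 itself (GRCh38 chr15:70047790-70098176, minus strand) had 967, 806, 582, 637 and 809 normalized counts in the SJRH30 knockout tumors, against 1465, 1357, 1032 and 1547 in the RD knockout tumors. All SJRH30 knockout values lay below all RD knockout values, with a log2 difference of -0.84 ± 0.22 (SE, limma adjusted p = 0.01). With the shallow RD knockout library included, at 424 normalized counts, the log2 difference was -0.50 (limma adjusted p = 0.27) and no longer passed. TLE3 had 426, 638, 597 and 407 normalized counts in the SJRH30 control tumors and 1345, 1810, 2622, 1270 and 1809 in the RD control tumors. In SJRH30 the knockout values therefore lay partly above the control values, and in RD they overlapped them. The labels do not say where the gene was cut, and a transcript can remain when its protein is lost, so these values do not check the knockout, and groups are named by their labels. Of the other TLE genes, TLE1 was higher, with 9052, 8231, 6718, 10072 and 8281 normalized counts in the SJRH30 knockout tumors, against 2860, 1894, 2554 and 2489 in the RD knockout tumors and a log2 difference of 1.79 ± 0.21 (SE, limma adjusted p = 1.3e-05). TLE2 was lower, with a log2 difference of -2.44 ± 0.26 (SE, limma adjusted p = 5.16e-06). TLE4, TLE5 and TLE6 did not pass, so 1 of 6 tested family members was higher and 2 were lower.

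The libraries sum to 37.0 to 48.0 M normalized counts (M, mega) in the SJRH30 knockout group and to 28.1 to 32.6 M in the RD knockout group. The first principal component held 50.7% of the variance and separated the lines. SJRH30 knockout replicate 4 stands apart on the second component, which held 16.8%. That library has 16.9% of its counts on mitochondrial genes, against 2.34% to 6.22% in the other SJRH30 knockout libraries. The RD knockout libraries had 3.34% to 8.69%. Without replicate 4, 13548 genes were called instead of 11721, and list counts below are given without it where they move by more than 1.5 times. RD knockout replicate 2 stands apart in muscle genes, as described with them.

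Across all genes the lines differed widely. Of 35739 genes tested, 11721 passed at a limma adjusted p below 0.05 (32.8%), 5809 of them higher in SJRH30 knockout tumors (16.3%) and 5912 lower (16.5%). In 9907 genes (27.7%) the groups did not overlap. Differences of at least 2-fold were called in 9312 genes. The median difference of all tested genes was -0.14. Rescaling the libraries to a common median ratio shifted it to -0.32, with 4642 genes higher and 7449 lower, so that the higher ones made up 38.4% of the calls instead of 49.6%. The authors' deposited table of the same comparison called 6009 genes higher and 6808 lower at an adjusted p below 0.05. Of the genes in both, 10898 were called in the same direction by the authors' deposited table and by limma, which is 93.0% of the limma calls and 92.5% of the authors' calls, and 0 were called in opposite directions.

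**Figure D1:**
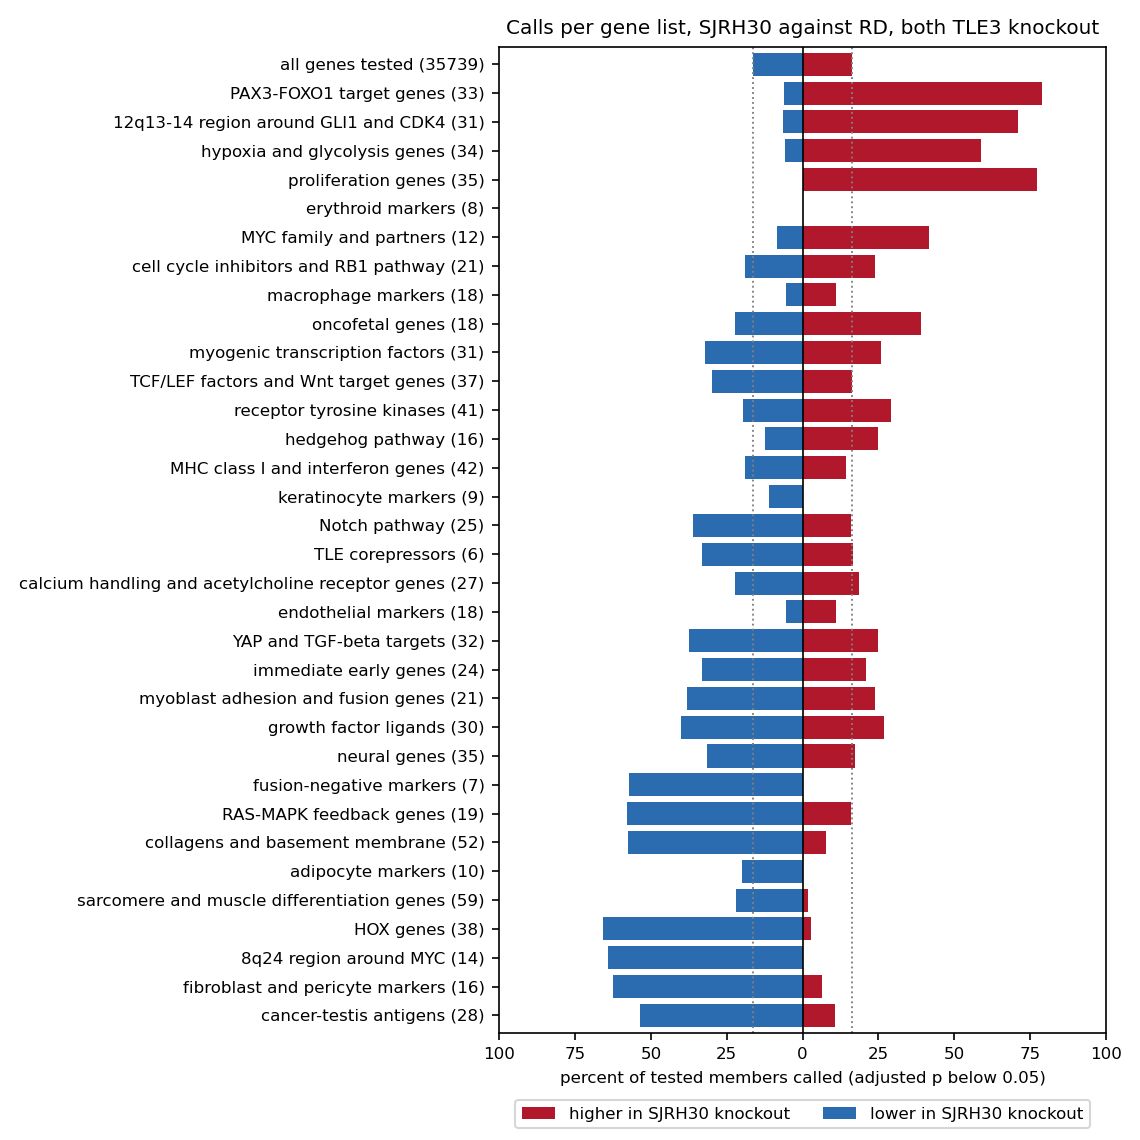
Bars give the percent of tested members of each gene list that were called higher (right) or lower (left) in SJRH30 knockout than in RD knockout tumors, with the number tested in parentheses; lists are ordered by their median difference, and dotted lines mark 16.3% and 16.5%, the shares of all genes tested. PAX3-FOXO1 targets, the 12q13-14 region, hypoxia and glycolysis genes and proliferation genes lie farthest to the right, and cancer-testis antigens, fibroblast markers, the 8q24 region and HOX genes have most of their calls on the left.

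Known targets of the PAX3-FOXO1 fusion protein were higher in SJRH30 knockout tumors almost throughout the list. Of 33 targets tested, 26 were higher, 2 were lower and 5 did not pass, with a median log2 difference of 2.48, against -0.14 over all genes. FGF8, a secreted growth factor of embryonic signalling centres, had 14639, 10372, 13031, 7446 and 12872 normalized counts in the SJRH30 knockout tumors, against 41, 49, 27 and 26 in the RD knockout tumors. The groups lay far apart, with a log2 difference of 8.32 ± 0.26 (SE, limma adjusted p = 2.38e-10). TFAP2B, a transcription factor used in pathology to recognise fusion-positive tumors, had 3398, 3699, 3138, 3847 and 4270 normalized counts in the SJRH30 knockout tumors, against 53, 14, 8 and 11 in the RD knockout tumors. Its lowest SJRH30 value was far above its highest RD value, with a log2 difference of 7.73 ± 0.41 (SE, limma adjusted p = 5.33e-09). OLIG2, a neural progenitor factor and another diagnostic marker of fusion-positive tumors, had 811, 647, 936, 1391 and 961 normalized counts in the SJRH30 knockout tumors, against 13, 9, 7 and 6 in the RD knockout tumors, and a log2 difference of 6.61 ± 0.31 (SE, limma adjusted p = 2.14e-09).

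Further targets followed the same order. PRDM12, a regulator of sensory neurons, differed by 7.13, BMP5, a bone morphogenetic protein, by 6.04, and POU4F1, a sensory neuron factor, by 5.61. ASS1, which makes argininosuccinate for arginine synthesis and was chosen after its values were seen, had 41976, 46250, 57606, 37803 and 52488 normalized counts in the SJRH30 knockout tumors, against 2008, 1109, 1578 and 1496 in the RD knockout tumors, with no overlap. NOS1, the neuronal nitric oxide synthase, had 6555, 4898, 5388, 15490 and 5381 normalized counts in the SJRH30 knockout tumors, against 310, 360, 290 and 321 in the RD knockout tumors. SJRH30 knockout replicate 4 was the highest for NOS1, and the lowest SJRH30 value was still above all RD values, with a log2 difference of 4.41 ± 0.30 (SE, limma adjusted p = 5.72e-08). The receptors among the targets were FGFR4, MET and ALK. FGFR4 had 46222, 31167, 30700, 16336 and 30880 normalized counts in the SJRH30 knockout tumors, against 4668, 3371, 3638 and 3632 in the RD knockout tumors, and a log2 difference of 2.96 ± 0.28 (SE, limma adjusted p = 1.41e-06). MET differed by 2.30 (limma adjusted p = 2.67e-06) and ALK by 1.48 (limma adjusted p = 0.00242). CDH3, a cadherin, differed by 2.16 (limma adjusted p = 3.18e-05). The lower targets, both chosen after their values were seen, were FOXF1 at -1.22 (limma adjusted p = 0.0255) and PGBD5 at -0.98 (limma adjusted p = 0.00128). FOXF1 overlapped between the groups and its call was lost in 6 of 18 alternative settings. PAX3, whose counts collect reads of the normal gene and of the 5′ part of the fusion, stood at 2245, 1982, 1396, 3439 and 2377 normalized counts in the SJRH30 knockout tumors, against 1158, 945, 747 and 1076 in the RD knockout tumors, and a log2 difference of 1.18 ± 0.26 (SE, limma adjusted p = 0.00262). FOXO1 differed by 0.48 (limma adjusted p = 0.15), which did not pass.

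**Figure D2:**
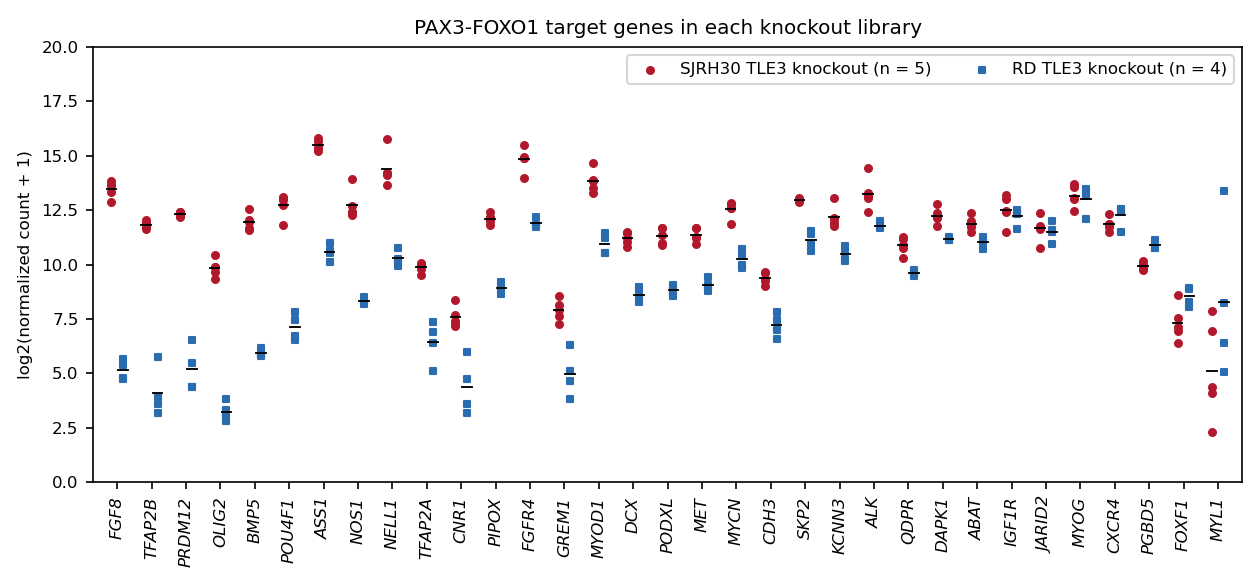
Each point is the log2(normalized count + 1) of 1 library for the 33 PAX3-FOXO1 targets, ordered by their difference, with SJRH30 knockout tumors (n = 5, red circles) left of RD knockout tumors (n = 4, blue squares) and the group mean as a line. FGF8, TFAP2B, PRDM12 and OLIG2 lie far apart at the left, and at the right MYOG, CXCR4 and MYL1 overlap.

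Promoters are shown for 4 of the higher targets, since these genes moved together and muscle factors such as MYOD1 and MYOG bind short E-box sequences. RefSeq (GRCh38.p14) gives a promoter of 300 bases, 250 before to 50 after the gene start, for 20 of the 26 higher targets. Capitals mark CAGCTG and CAGGTG, each searched on both strands, so that CACCTG is marked too.
TFAP2B, chr6:50818621-50818920, plus strand: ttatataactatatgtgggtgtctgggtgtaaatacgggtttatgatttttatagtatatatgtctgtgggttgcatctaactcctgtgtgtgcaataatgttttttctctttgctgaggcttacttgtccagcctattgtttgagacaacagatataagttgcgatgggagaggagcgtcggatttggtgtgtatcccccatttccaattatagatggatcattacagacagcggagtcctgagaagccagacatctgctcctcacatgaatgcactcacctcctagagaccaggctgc
POU4F1, chr13:78603503-78603802, minus strand: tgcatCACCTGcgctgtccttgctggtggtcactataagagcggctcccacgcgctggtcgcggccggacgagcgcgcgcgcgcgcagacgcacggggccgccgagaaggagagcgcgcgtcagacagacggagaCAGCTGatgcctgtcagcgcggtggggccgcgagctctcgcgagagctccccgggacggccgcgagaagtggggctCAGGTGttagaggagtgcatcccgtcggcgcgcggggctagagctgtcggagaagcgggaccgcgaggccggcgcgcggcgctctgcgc
FGFR4, chr5:177086665-177086964, plus strand: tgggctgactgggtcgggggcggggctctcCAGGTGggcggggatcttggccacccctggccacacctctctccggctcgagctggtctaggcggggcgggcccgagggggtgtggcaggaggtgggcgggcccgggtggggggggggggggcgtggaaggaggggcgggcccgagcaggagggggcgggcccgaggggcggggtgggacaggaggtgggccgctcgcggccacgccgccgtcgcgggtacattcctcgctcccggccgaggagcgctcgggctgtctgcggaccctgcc
ALK, chr2:29921537-29921836, minus strand: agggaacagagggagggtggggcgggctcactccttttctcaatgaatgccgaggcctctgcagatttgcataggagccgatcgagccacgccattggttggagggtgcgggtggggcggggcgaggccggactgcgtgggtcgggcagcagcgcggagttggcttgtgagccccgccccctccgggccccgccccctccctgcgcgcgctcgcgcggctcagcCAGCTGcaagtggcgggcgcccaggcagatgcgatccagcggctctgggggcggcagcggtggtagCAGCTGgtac
POU4F1 holds 1 CAGCTG and 2 CAGGTG matches, ALK holds 2 CAGCTG matches, FGFR4 holds 1 CAGGTG match, and TFAP2B holds none. Of the 20 promoters, 4 hold CAGCTG, against 17.9% of all 35116 promoters, and 3 hold CAGGTG, against 20.6% of all. These matches are letters in a window and say nothing of binding in these tumors.

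The myogenic regulators split. Of 31 myogenic transcription factors tested, 8 were higher, 10 were lower and 13 did not pass, with a median difference of -0.07. MYOD1, the master regulator that commits cells to muscle, had 14742, 11714, 25776, 10092 and 15051 normalized counts in the SJRH30 knockout tumors, against 2401, 1467, 2820 and 1492 in the RD knockout tumors. All SJRH30 values were higher, with a log2 difference of 2.90 ± 0.30 (SE, limma adjusted p = 3.31e-06). MYOG, which starts terminal differentiation, had 8586, 5577, 12044, 13360 and 8339 normalized counts in the SJRH30 knockout tumors, against 10645, 4403, 11241 and 9012 in the RD knockout tumors. Its groups overlapped and it did not pass, at 0.14 (limma adjusted p = 0.769). MYF5 and MYF6 were near the lower limit of the values, at 0 to 11 and 0 to 22 normalized counts in SJRH30 knockout tumors and 0 to 6 and 0 to 175 in RD knockout tumors. PAX7, the factor of muscle stem cells, had 60, 116, 75, 70 and 48 normalized counts in the SJRH30 knockout tumors, against 1732, 1947, 1898 and 3032 in the RD knockout tumors. RD tumors were higher in every library, with a log2 difference of -4.87 ± 0.28 (SE, limma adjusted p = 1.26e-08). EYA1 and EYA2, coactivators of homeobox factors of early muscle, differed by 3.02 and 2.90. ID3, which holds MYOD1 partners inactive, differed by -2.28 (limma adjusted p = 0.000157).

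Markers of fusion-negative tumors went the other way. Of 7 tested, 0 were higher, 4 were lower and 3 did not pass, with a median difference of -0.99. The lower ones were PAX7, CCND1, EGFR and HMGA2. CCND1, cyclin D1, had 475, 405, 448, 379 and 576 normalized counts in the SJRH30 knockout tumors, against 4180, 2929, 3771 and 4971 in the RD knockout tumors, with no overlap and a log2 difference of -3.10 ± 0.22 (SE, limma adjusted p = 8.51e-08). EGFR, the epidermal growth factor receptor, had 351, 577, 515, 474 and 510 normalized counts in the SJRH30 knockout tumors, against 1680, 1022, 1206 and 1196 in the RD knockout tumors, and a log2 difference of -1.39 ± 0.23 (SE, limma adjusted p = 0.000284). HMGA2, a chromatin protein used as a fusion-negative marker, differed by -0.99 (limma adjusted p = 0.00237). FBN2, fibrillin 2, did not pass, at 0.26 (limma adjusted p = 0.361). In knockout tumors TFAP2B, NOS1, OLIG2 and CDH3 thus lay on the side of the SJRH30 label, and EGFR and HMGA2 on that of RD. FBN2 did not separate the lines, and FOXO1, given above, did not pass. In control tumors the line differences were 7.19, 4.10, 7.69 and 2.97 for TFAP2B, NOS1, OLIG2 and CDH3. They were -1.33 for HMGA2 and only -0.13 for EGFR. Of the muscle markers listed for both lines, DES, CHRNA1 and CDH15 had values in all 9 libraries, with CDH15 lowest at 2773 normalized counts. MYOD1, MYOG and NCAM1 of that list had means of 15475.0, 9581.2 and 4127.4 normalized counts in SJRH30 knockout tumors. In RD knockout tumors their means were 2045.0, 8825.25 and 6668.75. The remaining markers, CHRNG and MYF5, had lower means. CHRNG had means of 1141.2 normalized counts in SJRH30 knockout and 1302.25 in RD knockout tumors. MYF5 was near the lower limit, with means of 3.6 and 3.75.

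In the MYC family, MYCN and MYCL were higher in SJRH30 knockout tumors. MYCN had 7337, 6134, 6117, 3756 and 7129 normalized counts in the SJRH30 knockout tumors, against 1688, 1014, 1337 and 921 in the RD knockout tumors, and a log2 difference of 2.30 ± 0.25 (SE, limma adjusted p = 7.41e-06). SJRH30 replicate 4 was the lowest of its group and still above every RD library. MYCL differed by 1.70 (limma adjusted p = 0.000511). MYC had 347, 717, 1480, 508 and 989 normalized counts in the SJRH30 knockout tumors, against 1549, 813, 1735 and 796 in the RD knockout tumors. The groups overlapped, and the difference of -0.69 (limma adjusted p = 0.191) did not pass. Of 12 family members and partners tested, 5 were higher, 1 was lower and 6 did not pass, with a median of 0.58. The other higher ones were MXD3 (2.10), MLXIP (1.07) and MLX (0.92, a call lost in 6 of 18 alternative settings), and the lower one was MXD4 (-1.86), which, like MXD3, competes with MYC for the partner MAX. MYC lies in a region of 8q24 of which 14 genes were tested. Of these, 9 were lower, 0 were higher and 5 did not pass, with a median of -1.51. MTSS1, an actin-binding scaffold, had 220, 188, 245, 178 and 172 normalized counts in the SJRH30 knockout tumors, against 5437, 3901, 3845 and 5894 in the RD knockout tumors, and a log2 difference of -4.55 ± 0.22 (SE, limma adjusted p = 2.93e-09). PVT1, the long noncoding RNA beside MYC, had 1821, 1455, 713, 3615 and 1246 normalized counts in the SJRH30 knockout tumors, against 4779, 9385, 4387 and 12726 in the RD knockout tumors, and a log2 difference of -2.20 ± 0.42 (SE, limma adjusted p = 0.000893). CYRIB and ASAP1, both regulators of actin, differed by -2.20 and -2.0. GSDMC and POU5F1B were low, at no more than 180 and 23 normalized counts in any of the 9 libraries, and the call of POU5F1B was lost in 6 of 18 alternative settings. Genome copies were not measured here.

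A block of genes at 12q13-14 was higher in SJRH30 knockout tumors. Of the 31 genes listed around GLI1 and CDK4, 22 were higher, 2 were lower and 7 did not pass, with a median of 1.54. CDK4 (GRCh38 chr12:57747727-57756013), the kinase that drives entry into S phase, had 25875, 17605, 30905, 19186 and 25907 normalized counts in the SJRH30 knockout tumors, against 4014, 2524, 4359 and 3219 in the RD knockout tumors. Every SJRH30 value was far above every RD value, with a log2 difference of 2.76 ± 0.25 (SE, limma adjusted p = 9.26e-07). GLI1, the transcription factor at the end of the hedgehog pathway, had 1001, 1028, 1004, 283 and 972 normalized counts in the SJRH30 knockout tumors, against 54, 26, 34 and 40 in the RD knockout tumors. Replicate 4 was far below the other SJRH30 libraries and above every RD library, with a log2 difference of 4.35 ± 0.38 (SE, limma adjusted p = 7.93e-07). SHMT2, a mitochondrial enzyme of one-carbon metabolism, differed by 2.40 (limma adjusted p = 2.63e-06), TSFM, a mitochondrial translation factor, by 2.78 (limma adjusted p = 6.07e-08), and TSPAN31, a tetraspanin whose gene neighbours CDK4, by 2.69 (limma adjusted p = 3.87e-07). INHBE, an inhibin subunit, differed by 2.28 (limma adjusted p = 0.000584). The lower ones, chosen after their values were seen, were KIF5A (-1.94), a kinesin of neurons, and STAT6 (-1.20), a factor of interleukin signalling. When all genes with a mean of at least 50 over the 9 libraries were taken in order of position, 33 of 41 genes between SHMT2 and ATP23 (GRCh38 chr12:57229327-57959148) were higher and 1 was lower, with a median of 1.72. Of the 31 other genes within 1.5 Mb on either side of CDK4, 4 were higher and 4 were lower, with a median of -0.10. These edges were set after the values were seen. Of all placed genes with such a mean, 23.9% were higher and 18.97% were lower. In control tumors the medians were 2.38 inside and 0.07 outside.

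**Figure D3:**
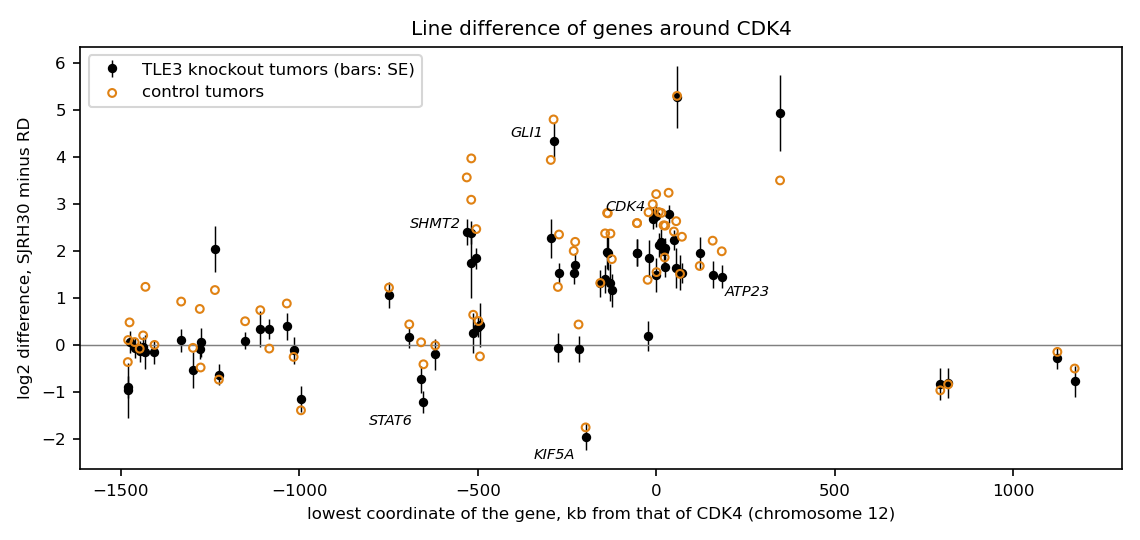
Points give the log2 difference, SJRH30 minus RD, of each gene within 1.5 Mb of CDK4 by its distance in kb, in knockout tumors (black, bars are SE) and in control tumors (open orange circles). Genes from SHMT2 to ATP23 lie mostly above 0, with a median of 1.72 in knockout tumors, and genes outside lie around 0.

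Hedgehog genes and cell cycle regulators were mixed outside that block. Of 16 hedgehog pathway genes, 4 were higher, 2 were lower and 10 did not pass, with a median of -0.16. The higher ones were GLI1, HHIP, DISP1 and SUFU. HHIP, a decoy receptor and target of the pathway, had 2817, 2606, 2241, 3131 and 2699 normalized counts in the SJRH30 knockout tumors, against 87, 96, 106 and 91 in the RD knockout tumors, and a log2 difference of 4.81 ± 0.20 (SE, limma adjusted p = 1.04e-09). DISP1, which releases hedgehog ligands, differed by 2.10, and SUFU, a pathway inhibitor, by 1.32. GLI3, the repressor GLI factor, had 975, 998, 983, 1526 and 931 normalized counts in the SJRH30 knockout tumors, against 4177, 4345, 3905 and 5923 in the RD knockout tumors, and a log2 difference of -2.09 ± 0.22 (SE, limma adjusted p = 4.7e-06). CDON, a coreceptor, differed by -0.79 (limma adjusted p = 0.021), a call lost in 3 of 18 alternative settings. PTCH1, the receptor and a common target, differed by -0.41 (limma adjusted p = 0.211) and did not pass. Of 21 cell cycle inhibitors and RB1 pathway genes, 5 were higher, 4 were lower and 12 did not pass, with a median of 0.42. Without SJRH30 replicate 4, 8 were higher. CDKN1C, an imprinted inhibitor of cyclin-dependent kinases, had 17, 6, 69, 31 and 24 normalized counts in the SJRH30 knockout tumors, against 2161, 1306, 3194 and 1475 in the RD knockout tumors. It was lower in every SJRH30 library, with a log2 difference of -6.35 ± 0.52 (SE, limma adjusted p = 3.35e-07). CDKN2B, the inhibitor of CDK4 and CDK6, differed by -2.72 (limma adjusted p = 1.45e-05), and CDK6, the close relative of CDK4, by -1.80 (limma adjusted p = 1.65e-05). CCNE1, cyclin E1, differed by 2.14 (limma adjusted p = 2.72e-06), E2F1 by 1.69 (limma adjusted p = 0.000233), RB1 by 0.99 (limma adjusted p = 0.00686) and CCND3 by 0.99 (limma adjusted p = 0.00311). E2F1 and CCND3 were chosen after their values were seen. CDKN1A, CDKN2A and MDM2 did not pass, at differences of 0.62, 0.72 and 0.25.

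The lines carried different growth factor receptors and ligands. Of 41 receptor tyrosine kinases, 12 were higher, 8 were lower and 21 did not pass, with a median of -0.15. FGFR2, a fibroblast growth factor receptor, had 2521, 2354, 2028, 3665 and 2253 normalized counts in the SJRH30 knockout tumors, against 169, 134, 67 and 140 in the RD knockout tumors, and a log2 difference of 4.37 ± 0.28 (SE, limma adjusted p = 3.24e-08). FGFR1 had 1293, 1241, 1446, 1549 and 1317 normalized counts in the SJRH30 knockout tumors, against 3594, 2688, 3906 and 4118 in the RD knockout tumors, and a log2 difference of -1.37 ± 0.20 (SE, limma adjusted p = 0.000106), so FGFR2 and FGFR4 were higher and FGFR1 lower in SJRH30 knockout tumors. NTRK3, a neurotrophin receptor, differed by 2.91 (limma adjusted p = 5.97e-07). PDGFRB, a receptor of pericytes, differed by -2.81 (limma adjusted p = 9.75e-06), RET by -2.69 (limma adjusted p = 7.33e-05) and PDGFRA by 1.42 (limma adjusted p = 0.0018). Of 30 growth factor ligands, 8 were higher, 12 were lower and 10 did not pass, with a median of -0.60. After rescaling, 5 were higher. NRG1, the neuregulin that activates ERBB receptors, had 468, 601, 611, 1027 and 604 normalized counts in the SJRH30 knockout tumors, against 25284, 32181, 39014 and 50212 in the RD knockout tumors. The RD values were far above the SJRH30 values in every library, with a log2 difference of -5.79 ± 0.26 (SE, limma adjusted p = 1.57e-09). PDGFB, FGF1 and FGF13 differed by -4.53, -3.71 and -3.13. FGF7, a ligand of FGFR2, had 259, 501, 427, 348 and 470 normalized counts in the SJRH30 knockout tumors, against 73, 65, 102 and 37 in the RD knockout tumors, and a log2 difference of 2.57 ± 0.32 (SE, limma adjusted p = 2.44e-05). IGF2, the fetal insulin-like growth factor, had 241716, 218761, 321234, 337597 and 300246 normalized counts in the SJRH30 knockout tumors, against 316801, 258531, 342914 and 358390 in the RD knockout tumors. It was among the highest genes in both lines, the groups overlapped, and it did not pass, at -0.18 (limma adjusted p = 0.709).

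Feedback genes of the RAS-MAPK cascade were mostly lower in SJRH30 knockout tumors. Of 19 tested, 3 were higher, 11 were lower and 5 did not pass, with a median of -1.01. DUSP4, a phosphatase that switches off MAP kinases, had 85, 93, 106, 57 and 77 normalized counts in the SJRH30 knockout tumors, against 2363, 1263, 3043 and 1421 in the RD knockout tumors, with a log2 difference of -4.52 ± 0.30 (SE, limma adjusted p = 3.91e-08). DUSP6, which acts on ERK, had 3172, 3212, 3347, 4251 and 4188 normalized counts in the SJRH30 knockout tumors, against 21076, 8782, 16416 and 12756 in the RD knockout tumors, with a log2 difference of -1.96 ± 0.26 (SE, limma adjusted p = 3.79e-05). Both genes separated the lines without overlap. PHLDA1, ETV1, EGR1 and PLAUR, all raised by ERK activity in many cells, differed by -4.16, -1.98, -1.89 and -2.30. The higher ones were EPHA2 (1.72), SPRED3 (1.25) and DUSP5 (0.95), chosen after their values were seen. The call of DUSP5 was lost in 6 of 18 alternative settings. Immediate early genes were mixed, with 5 of 24 higher, 8 lower and 11 that did not pass, and a median of -0.46. JUN, a subunit of AP-1, had 2510, 2952, 5680, 2768 and 3328 normalized counts in the SJRH30 knockout tumors, against 954, 730, 1268 and 659 in the RD knockout tumors, and a log2 difference of 1.91 ± 0.27 (SE, limma adjusted p = 8.32e-05). EGR3 differed by -3.67 and IER2 by -1.55. ATF3, PPP1R15A, ZFP36 and KLF4 were the other higher ones, at 1.1, 1.15, 1.05 and 0.86, and the last pair was chosen after the values were seen. The calls of KLF4 and ZFP36 were lost in 6 and 2 of 18 alternative settings, and KLF4 was lower in control tumors, at -1.15. EGR1, IER3 and FOSL1 are on both lists and count in both. In control tumors 0 immediate early genes were higher and 12 were lower.

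Oncofetal and imprinted genes included some of the wide differences. Of 18 tested, 7 were higher, 4 were lower and 7 did not pass, with a median of 0.02. MEG3, the maternally expressed noncoding RNA of the imprinted locus at 14q32, had 185729, 153173, 45372, 43000 and 99755 normalized counts in the SJRH30 knockout tumors, against 6462, 4852, 4058 and 5019 in the RD knockout tumors. SJRH30 values ranged widely and all lay above the RD values, with a log2 difference of 4.14 ± 0.41 (SE, limma adjusted p = 2.43e-06). MEG8, MEG9 and RTL1 of the same locus differed by 2.94, 3.26 and 3.17. DLK1, like RTL1 a paternally expressed gene of that locus, and an inhibitor of differentiation, had 143, 233, 144, 73 and 160 normalized counts in the SJRH30 knockout tumors, against 755, 526, 893 and 240 in the RD knockout tumors. It was lower in SJRH30 knockout tumors, with a log2 difference of -1.93 ± 0.39 (SE, limma adjusted p = 0.00161), and this call was lost with the shallow RD knockout library included. LIN28B, which blocks the let-7 microRNAs, had 1053, 936, 766, 1649 and 1005 normalized counts in the SJRH30 knockout tumors, against 101, 126, 107 and 134 in the RD knockout tumors, and a log2 difference of 3.16 ± 0.25 (SE, limma adjusted p = 2.68e-07). IGF2BP1, an RNA-binding protein of fetal tissue, differed by 1.22 (limma adjusted p = 0.000917), whereas IGF2BP3 did not pass, at 0.10 (limma adjusted p = 0.861). H19, the noncoding RNA that neighbours IGF2, did not pass either, at -0.21 (limma adjusted p = 0.824). PEG10, chosen after its values were seen, was lower at -0.74 (limma adjusted p = 0.0181).

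TLE proteins repress through TCF/LEF and HES factors, and genes of both pathways were listed. Of 37 TCF/LEF factors, Wnt receptors and Wnt targets, 6 were higher, 11 were lower and 20 did not pass, with a median of -0.10. The share higher, 16.2%, was near the 16.3% of all genes tested, and the share lower was 29.7%, against 16.5%. LEF1, a TCF/LEF factor, had 792, 860, 636, 1100 and 1016 normalized counts in the SJRH30 knockout tumors, against 517, 436, 428 and 450 in the RD knockout tumors, and a log2 difference of 0.92 ± 0.22 (SE, limma adjusted p = 0.00491). AXIN2, the most general target of Wnt signalling, differed by 0.72 (limma adjusted p = 0.085) and did not pass. The Frizzled receptors FZD6, FZD7 and FZD9 were lower, at -3.66, -3.29 and -4.81. LGR5, a receptor for R-spondins, had 702, 900, 528, 660 and 636 normalized counts in the SJRH30 knockout tumors, against 5182, 2789, 4690 and 2133 in the RD knockout tumors, and a log2 difference of -2.36 ± 0.28 (SE, limma adjusted p = 1.26e-05). NOTUM, a secreted inhibitor of Wnt, differed by -2.43, and TNFRSF19, a Wnt target, by -2.43. Of 25 Notch pathway genes, 4 were higher, 9 were lower and 12 did not pass, with a median of -0.22. HES1, the classical Notch target and a partner of TLE proteins, had 375, 305, 443, 515 and 357 normalized counts in the SJRH30 knockout tumors, against 3467, 2586, 5029 and 4361 in the RD knockout tumors. It was lower in SJRH30 knockout tumors, with a log2 difference of -3.25 ± 0.24 (SE, limma adjusted p = 1.46e-07). HEY1 had 153, 110, 71, 124 and 100 normalized counts in the SJRH30 knockout tumors, against 2166, 927, 1915 and 1757 in the RD knockout tumors, and MAML2, a coactivator of Notch, differed by -4.53 (limma adjusted p = 2.29e-08). NOTCH3 had 1014, 739, 1102, 715 and 768 normalized counts in the SJRH30 knockout tumors, against 7159, 4940, 5989 and 6453 in the RD knockout tumors, and a log2 difference of -2.83 ± 0.22 (SE, limma adjusted p = 1.69e-07). DTX4 (2.79), RFNG (1.97), MFNG (1.15) and HES6 (0.99) were the higher ones, the last 3 chosen after their values were seen. The calls of MFNG and HES6 were lost in 8 and 1 of 18 alternative settings. NOTCH3 also marks pericytes, and markers of stroma that moved with it are given with the collagens. Of 32 YAP and TGF-beta targets, 8 were higher, 12 were lower and 12 did not pass. TGFBI, a matrix protein, differed by -3.49 (limma adjusted p = 6.17e-06), CCN2 by -2.38 (limma adjusted p = 6.52e-05) and NOG, an antagonist of bone morphogenetic proteins, by 2.52 (limma adjusted p = 6.2e-07).

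Most genes of the contractile apparatus did not pass the test. Of 59 sarcomere and muscle differentiation genes, 1 was higher, 13 were lower and 45 did not pass, with a median of -1.44. The number of higher members and the median rest on RD knockout replicate 2, and the number of lower members hardly does. The summed level of the list was 63273 to 118110 normalized counts in the SJRH30 knockout tumors, against 68019, 611707, 60199 and 46951 in RD knockout replicates 1 to 4. Without RD replicate 2, 10 members were higher and 12 lower, with a median of -0.31, and without SJRH30 replicate 4, 4 were higher and 13 lower. MYH8, the perinatal myosin heavy chain, had 47, 117, 109, 60 and 154 normalized counts in the SJRH30 knockout tumors, against 116, 10563, 62 and 40 in the RD knockout tumors, so that a single RD library carried nearly all of it, and it did not pass, at -1.40 (limma adjusted p = 0.389). MYH3, the embryonic myosin heavy chain, had 319, 388, 214, 167 and 308 normalized counts in the SJRH30 knockout tumors, against 3170, 7040, 1659 and 1618 in the RD knockout tumors. Here every SJRH30 library was below every RD library, with a log2 difference of -3.38 ± 0.40 (SE, limma adjusted p = 1.3e-05). KLHL41, LMOD3 and LDB3, which maintain thin filaments and Z-discs, differed by -3.98, -2.95 and -2.24, and UNC45B, a chaperone of myosin, by -2.08. ENO3, the muscle enolase, was the higher one, with 23562, 16420, 38027, 7821 and 21447 normalized counts in the SJRH30 knockout tumors, against 3291, 18394, 4769 and 1768 in the RD knockout tumors, overlap in RD replicate 2, and a log2 difference of 2.0 ± 0.56 (SE, limma adjusted p = 0.0129). DES did not pass, at 0.02 (limma adjusted p = 0.962).

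Calcium handling and acetylcholine receptor genes were mixed, with 5 of 27 higher, 6 lower, 16 that did not pass and a median of -0.27. The shares, 18.5% higher and 22.2% lower, were not far from the 16.3% and 16.5% of all genes tested. The genes named here therefore do not stand for the list. RYR3, a calcium release channel, had 4820, 6660, 3822, 7578 and 5676 normalized counts in the SJRH30 knockout tumors, against 710, 913, 1003 and 955 in the RD knockout tumors, and a log2 difference of 2.64 ± 0.23 (SE, limma adjusted p = 7.98e-07). STAC3, which couples the calcium channels of muscle and lies in the 12q block, differed by 1.85 (limma adjusted p = 1.83e-05), and CASQ2, a calcium store protein, by 1.99 (limma adjusted p = 0.000111). RYR1 and CHRNB1, chosen after their values were seen, differed by 0.95 and 0.71, calls lost in 9 and 1 of 18 alternative settings. JPH2 differed by -2.42, TRDN by -1.70, a call lost in 4 settings, and ACHE, acetylcholinesterase, by -3.08. CHRNA1, the adult and fetal receptor subunit, differed by -0.86 (limma adjusted p = 0.0248), a call lost in 5 of 18 alternative settings. Of 21 adhesion and fusion genes of myoblasts, 5 were higher, 8 were lower and 8 did not pass, with a median of -0.52. CDH15, the cadherin of muscle cells, had 25687, 19046, 15103, 17458 and 18595 normalized counts in the SJRH30 knockout tumors, against 3058, 2799, 2773 and 5022 in the RD knockout tumors, and a log2 difference of 2.51 ± 0.24 (SE, limma adjusted p = 2.11e-06). ITGA4, CDH2 and CDH4 were lower, at -3.0, -2.50 and -2.04. MYMX, a small protein that completes the fusion of myoblasts, differed by 1.66 (limma adjusted p = 0.019) with overlapping groups. JAM2 (0.78) and CD9 (1.31), chosen after their values were seen, were the remaining higher ones beside CDH3. The calls of JAM2 and MYMX were lost in 5 and 4 of 18 alternative settings.

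HOX genes, which record the position of a cell along the body axis, were lower as a group in SJRH30 knockout tumors. Of 38 tested, 25 were lower, 1 was higher and 12 did not pass, with a median of -1.46. With the shallow RD knockout library included, 2 were higher and 18 lower, and without SJRH30 replicate 4, 2 were higher and 26 lower. HOXC12, HOXD10 and HOXB9 had the widest differences. HOXD10 had 14, 2, 6, 2 and 5 normalized counts in the SJRH30 knockout tumors, against 543, 394, 571 and 449 in the RD knockout tumors, and a log2 difference of -6.43 ± 0.47 (SE, limma adjusted p = 1.15e-07). HOXC12 had 6, 0, 7, 0 and 2 normalized counts in the SJRH30 knockout tumors, against 321, 246, 415 and 283 in the RD knockout tumors, with 2 SJRH30 libraries at 0, and a log2 difference of -6.80 ± 0.64 (SE, limma adjusted p = 1.42e-06). HOXB9 differed by -6.20, HOXD11 by -5.02, HOXD3 by -4.0 and HOXC11 by -3.98. HOXC12, HOXD10 and HOXB9 passed the filter on low values only because of their RD values. Their p-values and their places in the counts are therefore no separate support for a difference. By cluster, 8 of 9 HOXC and 8 of 9 HOXD genes were lower, against 5 of 11 HOXA and 4 of 9 HOXB genes. The medians were -1.97 for HOXC, -2.74 for HOXD, -0.78 for HOXA and -0.58 for HOXB. The higher gene was HOXA7 at 0.73 (limma adjusted p = 0.0445). It was chosen after its values were seen, and its call was lost in 9 of 18 alternative settings.

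**Figure D4:**
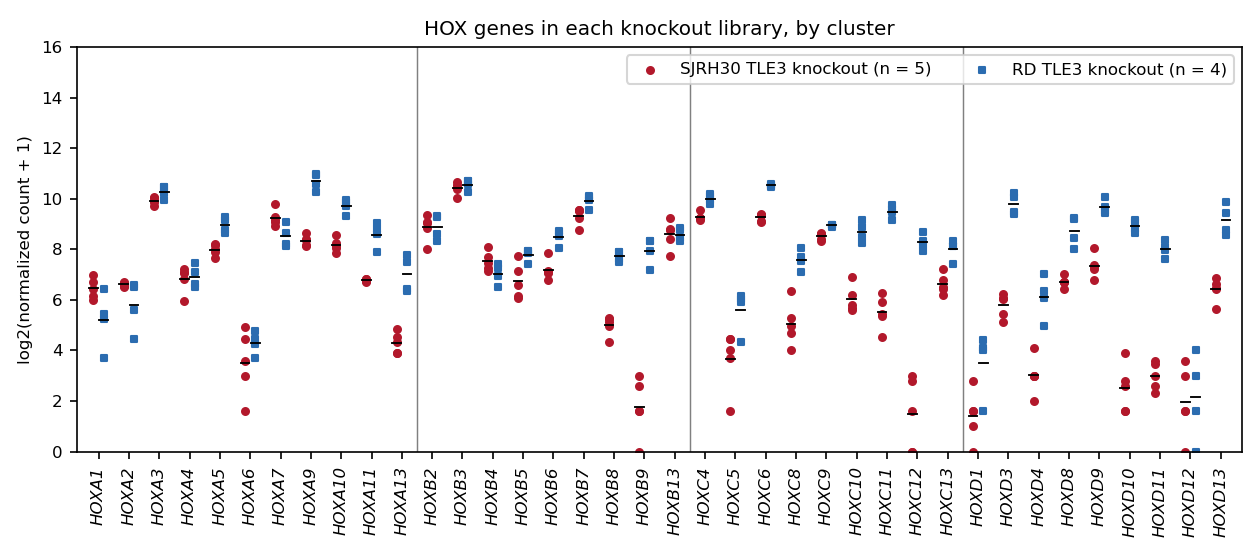
Each point is the log2(normalized count + 1) of 1 library for the 38 HOX genes tested, in cluster order from HOXA to HOXD, with SJRH30 knockout tumors (n = 5, red circles) left of RD knockout tumors (n = 4, blue squares) and the group mean as a line. RD means lie above SJRH30 means for the 8 of 9 HOXC and 8 of 9 HOXD genes that passed, and several anterior HOXA and HOXB genes overlap.

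Cancer-testis antigens, genes that are silent in most adult tissues outside the testis and lie in large part on the X chromosome, gave some of the widest differences. Of 40 genes listed, 28 were tested, of which 15 were lower, 3 were higher and 10 did not pass, with a median of -4.46. The counts and the median cover only the members that passed the filter on low values. CTAG2 and MAGEA3 are among those that passed through the RD libraries alone, and MAGEC2 passed through the SJRH30 libraries alone. The counts, the median and the p-values of such members are therefore no separate support for a difference. Without RD knockout replicate 2, 20 passed a filter that still asked for 4 libraries, and 10 of these were lower, with a median of -2.52. With the shallow RD library 31 were tested and the median was -1.47. CTAG2 had 0, 0, 2, 0 and 0 normalized counts in the SJRH30 knockout tumors, against 3184, 2513, 3902 and 3939 in the RD knockout tumors. All SJRH30 libraries but 1 were at 0, and the fitted difference was -11.38 (limma adjusted p = 6.1e-10). MAGEA3 had 0, 3, 3, 0 and 0 normalized counts in the SJRH30 knockout tumors, against 1665, 716, 1509 and 904 in the RD knockout tumors. MAGEA6, MAGEA12, MAGEA10, MAGEA2, MAGEA2B and CSAG1 had at most 7 normalized counts in any SJRH30 knockout library and at least 463 in every RD knockout library. CTAG1A and CTAG1B, XAGE1A and XAGE1B, MAGEA2 and MAGEA2B, and MAGEA3 and MAGEA6 are near-identical copies, so reads may be split between the members of each pair. MAGEC2 went the other way, with 958, 1095, 1612, 1951 and 1203 normalized counts in the SJRH30 knockout tumors, against 1, 0, 0 and 1 in the RD knockout tumors, and a log2 difference of 9.86 ± 0.37 (SE, limma adjusted p = 6.1e-10). MAGEC1 differed by 7.89 (limma adjusted p = 1.61e-07), and MAGEB1, chosen after its values were seen, by 6.29 (limma adjusted p = 9.2e-09). Among the members named here, the MAGEA genes and CTAG2 had their high values in RD, and MAGEC1, MAGEC2 and MAGEB1 in SJRH30.

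The remaining genes with the widest differences came from several families. On the higher side, ERVW-1, the endogenous retroviral envelope known as syncytin, had 12856, 19208, 18804, 3299 and 19339 normalized counts in the SJRH30 knockout tumors, against 10, 18, 10 and 20 in the RD knockout tumors. Replicate 4 was the lowest of the group, and no RD library exceeded 20. FCRLA, an intracellular protein of B cells, had 4547, 3750, 4996, 4115 and 4681 normalized counts in the SJRH30 knockout tumors, against 15, 15, 4 and 13 in the RD knockout tumors, and IGLL5, an immunoglobulin lambda-like gene, differed by 7.42 (limma adjusted p = 8.59e-09). NTN5, a netrin, had 23788, 13620, 11261, 11596 and 12184 normalized counts in the SJRH30 knockout tumors, against 46, 91, 57 and 103 in the RD knockout tumors. LDOC1, RNF186, EXTL1, C12orf54, IRX2-DT and LRRC10B differed by 8.38, 7.59, 7.30, 7.09, 7.04 and 7.03. On the lower side, VAX1, a homeobox factor of the ventral forebrain, had 0, 1, 1, 7 and 1 normalized counts in the SJRH30 knockout tumors, against 920, 672, 977 and 866 in the RD knockout tumors. BARX1, a homeobox factor of stomach and jaw, had 0, 5, 5, 0 and 2 normalized counts in the SJRH30 knockout tumors, against 788, 622, 1208 and 511 in the RD knockout tumors. VAX1 and BARX1 passed the filter on low values only because of their RD values. PNMA5, which neighbours the MAGEA genes, differed by -9.23 (limma adjusted p = 1.45e-09). Neural genes as a list had 6 of 35 higher, 11 lower and 18 that did not pass, with a median of -0.69. The shares were 17.1% higher and 31.4% lower, against 16.3% and 16.5% of all genes tested. OLIG1 (5.25) was higher, as were OLIG2 and POU4F1 named above, and SYT4 (-5.94), CNTN2 (-5.86) and INA (-3.84) were lower.

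Collagens and basement membrane genes were lower in SJRH30 knockout tumors. Of 52 tested, 30 were lower, 4 were higher and 18 did not pass, with a median of -1.25. COL9A2, a chain of cartilage collagen, had 91, 85, 88, 61 and 100 normalized counts in the SJRH30 knockout tumors, against 4991, 3946, 4139 and 3546 in the RD knockout tumors, and a log2 difference of -5.60 ± 0.22 (SE, limma adjusted p = 7.46e-10). COL9A1 and COL9A3, the other chains, differed by -4.30 and -4.61, and COL26A1 by -5.40. LAMC3, a laminin chain, differed by -4.65. COL6A2 had 301, 516, 1343, 76 and 321 normalized counts in the SJRH30 knockout tumors, against 8293, 5208, 9503 and 5370 in the RD knockout tumors, and a log2 difference of -4.29 ± 0.57 (SE, limma adjusted p = 4.34e-05). The higher ones, chosen after their values were seen, were COL11A2 (2.30), HSPG2 (2.15), which encodes perlecan, COL7A1 (1.45) and LAMA5 (1.26).

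Markers of fibroblasts and pericytes moved with these genes. Of 16 such markers, 10 were lower and 1 was higher, PDGFRA, and their summed level was 10308 to 67790 normalized counts in SJRH30 knockout tumors, against 60209 to 148180 in RD knockout tumors. DCN, decorin, had 181, 435, 904, 409 and 360 normalized counts in the SJRH30 knockout tumors, against 12340, 3273, 8615 and 2647 in the RD knockout tumors, and a log2 difference of -3.77 ± 0.47 (SE, limma adjusted p = 2.48e-05). COL3A1, which is on both lists, had 7967, 19312, 30538, 1442 and 10805 normalized counts in the SJRH30 knockout tumors, against 97354, 37961, 83247 and 29366 in the RD knockout tumors, with overlapping groups and a log2 difference of -2.54 ± 0.68 (SE, limma adjusted p = 0.00966). THY1 and FBLN1 differed by -2.75 and -2.32. None of the 16 markers was at 0 in all 9 libraries. The reads were aligned to the human genome and the notes name no step that removes mouse reads, so counts on conserved genes can hold RNA of the host. In whole tumors, fewer cells of a type and less RNA per cell cannot be told apart. The part of stroma in the collagen result was not tested.

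Few markers of the other host cell types were called. Of 18 macrophage markers, 2 were higher, LAPTM5 and CD14, and 1 was lower, MSR1, at summed levels of 4748 to 14440 in SJRH30 knockout tumors and 3688 to 5427 in RD knockout tumors. LAPTM5, a lysosomal protein of blood cells, had 2306, 3333, 3694, 1069 and 4970 normalized counts in the SJRH30 knockout tumors, against 124, 71, 84 and 28 in the RD knockout tumors, and a log2 difference of 5.31 ± 0.45 (SE, limma adjusted p = 4.89e-07). The summed levels of the macrophage markers include LAPTM5. Of the 18 markers 15 did not pass, and the median log2 difference of the list was 0.02. The calls of CD14 (1.81) and MSR1 (-0.64) were lost in 8 and 13 of 18 alternative settings. Of 18 endothelial markers, MMRN2 (1.91) and ENG (1.53) were higher and EGFL7 (-1.90) lower, at summed levels of 3034 to 6839 in SJRH30 knockout tumors and 3534 to 4530 in RD knockout tumors. Among 10 adipocyte markers PPARG (-2.42) and LIPE (-1.74) were lower. TP63 (-2.45) was the 1 keratinocyte marker of 9 called. None of 8 erythroid markers passed in limma, 1 had an unadjusted p below 0.05 and 0 were called in the authors' deposited table, at summed levels of 3971 to 22097 in SJRH30 knockout tumors and 921 to 14028 in RD knockout tumors.

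Proliferation genes and hypoxia or glycolysis genes were higher in SJRH30 knockout tumors. Of 35 proliferation genes, 27 were higher, 0 were lower and 8 did not pass, with a median of 1.21, against -0.14 over all genes. At an unadjusted p below 0.05, 29 were higher and 0 lower, and 0 were lower in the authors' deposited table. MKI67, the nuclear protein of cycling cells, had 5440, 6141, 8084, 4598 and 7368 normalized counts in the SJRH30 knockout tumors, against 3067, 2257, 2321 and 2802 in the RD knockout tumors, and a log2 difference of 1.26 ± 0.22 (SE, limma adjusted p = 0.000533). CCNB2, a mitotic cyclin, had 1657, 2061, 3279, 1266 and 2510 normalized counts in the SJRH30 knockout tumors, against 275, 163, 288 and 210 in the RD knockout tumors, and a log2 difference of 3.16 ± 0.29 (SE, limma adjusted p = 1.05e-06). UBE2C, RRM2, CENPF, CCNA2 and AURKA differed by 2.56, 2.24, 2.05, 2.02 and 1.85. Of 34 hypoxia and glycolysis genes, 20 were higher, 2 were lower and 12 did not pass, with a median of 1.35. CA9, a carbonic anhydrase induced by hypoxia, had 552, 364, 341, 329 and 281 normalized counts in the SJRH30 knockout tumors, against 15, 21, 7 and 11 in the RD knockout tumors, and a log2 difference of 4.75 ± 0.35 (SE, limma adjusted p = 1.22e-07). HK2, a hexokinase, had 2686, 2213, 2526, 2438 and 2359 normalized counts in the SJRH30 knockout tumors, against 334, 321, 339 and 316 in the RD knockout tumors, and a log2 difference of 2.89 ± 0.19 (SE, limma adjusted p = 3.1e-08). Its SJRH30 and RD values were each narrow and far apart. ENO1, the general enolase, had 60874, 52695, 125251, 31207 and 81292 normalized counts in the SJRH30 knockout tumors, against 10274, 7840, 12225 and 11106 in the RD knockout tumors, and PFKP and SLC2A1, a phosphofructokinase and the main glucose transporter, differed by 2.91 and 2.61. SLC2A3, a second glucose transporter, and BNIP3L, chosen after its values were seen, were lower, at -2.59 and -1.15.

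Interferon and MHC class I genes showed shares of calls near those of all genes. Of 42 tested, 6 were higher (14.3%) and 8 were lower (19.05%), and 28 did not pass, with a median of -0.16. TAPBP, which loads peptides on class I molecules, had 98, 110, 309, 150 and 107 normalized counts in the SJRH30 knockout tumors, against 609, 578, 726 and 670 in the RD knockout tumors, and a log2 difference of -2.19 ± 0.32 (SE, limma adjusted p = 9.96e-05). IFI6, IFIT2, IFIT3 and IFI44L, all induced by interferon, differed by -2.71, -2.37, -2.0 and -2.04. The genes named here are all on the lower side and the 6 higher members are not named, so they do not stand for the list.

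The line difference also ran in blocks along chromosomes. Windows of 25 neighbouring genes with a mean of at least 50 were ranked by their median difference, a step chosen after the values were seen and given without a test. Over all placed genes with such a mean, 23.9% were higher and 18.97% were lower. The highest of 20688 overlapping windows lay on chromosome 17 at 17.6 to 18.6 Mb, with a median of 2.77 and 23 of 25 genes higher. Chromosome 15 at 57.6 to 59.7 Mb followed with 20 of 25 higher and a median of 2.17. The end of chromosome 17, at 81.9 to 82.3 Mb, had 23 of 25 higher and a median of 1.96. The CDK4 window of chromosome 12 had 24 of 25 higher and a median of 1.96. The lowest window held the MAGEA genes of the X chromosome, with 17 of 25 lower and a median of -4.44. It was followed by the protocadherin alpha genes on chromosome 5, at 140.6 to 141.1 Mb, with 18 of 25 lower and a median of -3.67. A window of chromosome 18, at 54.4 to 58.8 Mb, had 21 of 25 lower and a median of -1.83. In control tumors these windows had medians of 3.18, 1.89, 2.38, 2.55, -4.12, -3.59 and -2.54, in the same order.

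Clustered protocadherins, neuronal adhesion proteins encoded in 3 neighbouring gene arrays, were separated by array. All 15 PCDHA genes tested were lower, with a median of -3.71, and 9 of 16 PCDHB genes were lower, with a median of -1.31. None of 22 PCDHG genes passed in either direction in limma, with a median of 0.14, and 0 had an unadjusted p below 0.05 or a call in the authors' deposited table. Reads of the shared last exons of PCDHA, and likewise of PCDHG, may count towards several genes of the array. The members of each of these arrays are therefore not independent. In control tumors 15 of 15 PCDHA genes were lower, and 4 of 16 PCDHB genes were higher and 4 lower.

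The same lines differed in much the same genes without the knockout. Of 36084 genes tested in control tumors, 16724 were called (46.3%), 7625 higher and 9099 lower in SJRH30. Among 34431 genes tested in both comparisons, 9260 were called in the same direction in both, which is 80.1% of the knockout calls and 56.7% of the control calls. Another 18 were called in opposite directions. Across these genes the log2 differences of both comparisons had a Pearson r of 0.845. Genes are not independent replicates, and both comparisons share the lines and the scaling of all libraries together. PAX3-FOXO1 targets had 27 of 33 higher and 2 lower in control tumors, HOX genes 4 of 38 higher and 26 lower, and proliferation genes 29 of 35 higher and 0 lower. Sarcomere genes had 6 of 59 higher and 7 lower in control tumors. Their summed level was 94433, 221639, 343323 and 102348 normalized counts in the SJRH30 control tumors, against 819209, 46027, 48786, 405295 and 142428 in the RD control tumors, so single libraries stood apart there as well. FGF8 differed by 8.32 in knockout and 7.75 in control tumors, PAX7 by -4.87 and -4.79, and CDK4 by 2.76 and 3.22.

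The difference between these line differences was tested directly over 18 libraries. It passed in 92 of 39530 genes (0.233%), 38 positive (0.0961%) and 54 negative (0.137%), at a limma adjusted p below 0.05. An unadjusted p below 0.05 was reached in 4286 genes. With the shallow libraries included 4 genes passed, so most of these calls depend on leaving those libraries out. SJRH30 control replicates 2 and 4 sum to 60.7 and 46.3 M normalized counts, against 38.0 and 41.6 M in replicates 1 and 5. Without SJRH30 control replicate 2, 28 genes passed, and without replicate 4, 21 passed. The range with any 1 library left out was 21 to 128. KRT18, a keratin of simple epithelia, had 17, 2, 9, 15 and 3 normalized counts in the SJRH30 knockout tumors, against 70, 32, 73 and 62 in the RD knockout tumors. It had 445, 1061, 701 and 495 normalized counts in the SJRH30 control tumors and 62, 57, 68, 50 and 113 in the RD control tumors. The line difference was thus -2.83 in knockout and 3.23 in control tumors, and their difference was -6.06 ± 0.68 (SE, limma adjusted p = 0.000144). KRT8, its partner keratin, and MYL4, the embryonic and atrial myosin light chain, also had line differences of opposite sign. For KRT8 they were -1.07 in knockout and 1.77 in control tumors, and their difference was -2.85 ± 0.57 (SE, limma adjusted p = 0.0376). The knockout call of KRT8 was lost in 6 of 18 alternative settings. For MYL4 the line differences were -1.12 in knockout and 1.85 in control tumors, and their difference was -2.97 ± 0.46 (SE, limma adjusted p = 0.00514). KRT8 and MYL4 were chosen after their values were seen.

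CEACAM21, a cell surface protein of the CEA family, had 45, 24, 43, 32 and 36 normalized counts in the SJRH30 knockout tumors, against 1075, 654, 962 and 789 in the RD knockout tumors. It had 299, 762, 588 and 192 normalized counts in the SJRH30 control tumors and 466, 640, 657, 489 and 653 in the RD control tumors. The groups overlapped in control and not in knockout tumors, and the difference of the line differences was -4.05 ± 0.46 (SE, limma adjusted p = 0.000144). FBXL7, an F-box protein, had 7193, 6931, 3990, 16647 and 6671 normalized counts in the SJRH30 knockout tumors, against 833, 797, 654 and 680 in the RD knockout tumors, and the difference of the line differences was 2.96 ± 0.41 (SE, limma adjusted p = 0.0021). ZNF667-AS1, a noncoding RNA beside a zinc finger gene, had 8, 19, 14, 13 and 4 normalized counts in the SJRH30 knockout tumors, against 899, 505, 804 and 576 in the RD knockout tumors, and the difference was -3.67 ± 0.54 (SE, limma adjusted p = 0.00408). SYCE1, a protein of the synaptonemal complex, gave -3.06 ± 0.46 (SE, limma adjusted p = 0.00484). FOSB, an AP-1 subunit, had 40, 45, 29, 42 and 33 normalized counts in the SJRH30 knockout tumors, against 34, 25, 43 and 48 in the RD knockout tumors. It had 310, 303, 453 and 166 normalized counts in the SJRH30 control tumors and 1234, 2776, 3793, 3001 and 1953 in the RD control tumors. Its groups overlapped in knockout tumors and lay apart in control tumors, with 3.07 ± 0.47 (SE, limma adjusted p = 0.00484) for the difference. MTARC1, a mitochondrial reductase, gave 2.49 ± 0.38 (SE, limma adjusted p = 0.00484). Among the listed pathways NOTCH3 at -2.11 ± 0.38 (SE, limma adjusted p = 0.0177), CHRNG at -2.42 ± 0.46 (SE, limma adjusted p = 0.03) and ASS1 at -1.84 ± 0.37 (SE, limma adjusted p = 0.0392) passed. CHRNG, the fetal acetylcholine receptor subunit, had 950, 1218, 1343, 1105 and 1090 normalized counts in the SJRH30 knockout tumors, against 1348, 1331, 1013 and 1517 in the RD knockout tumors. It had 1569, 5467, 3528 and 1660 normalized counts in the SJRH30 control tumors and 360, 615, 1032, 579 and 429 in the RD control tumors. SJRH30 control replicates 2 and 4, with the highest totals of that group, were also the highest for CHRNG. The remaining genes of the 10 with the smallest p were the long noncoding RNAs ENSG00000229618 and ENSG00000227479, at differences of 3.49 and -2.85, and the pseudogene DPY19L4P2. DPY19L4P2 had 0 in all SJRH30 knockout libraries and at most 4 in RD knockout libraries, too low to be tested between knockout tumors. It had 69, 12, 32 and 71 normalized counts in the SJRH30 control tumors and 1, 0, 0, 0 and 0 in the RD control tumors, and the difference of the line differences was -5.89 ± 0.90 (SE, limma adjusted p = 0.00484). DPY19L4P2 passed the filter on low values through the SJRH30 control libraries alone. Its p-value is therefore no separate support for a difference.

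**Figure D5:**
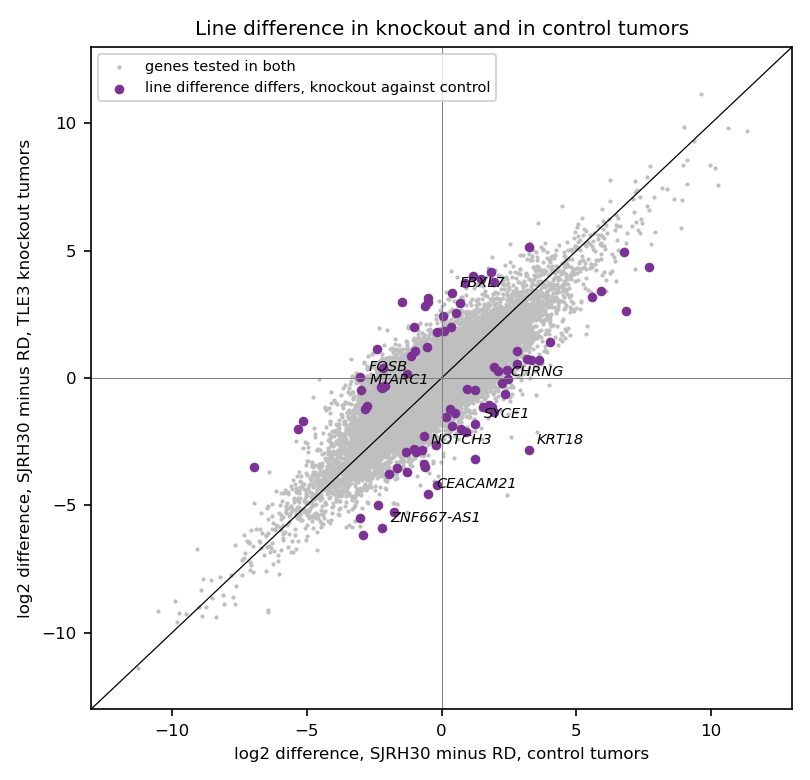
Each point is a gene tested in both comparisons, with the log2 difference SJRH30 minus RD in knockout tumors on the vertical axis and in control tumors on the horizontal axis; the line marks equal differences. Purple points are genes in which the line difference itself differed at a limma adjusted p below 0.05, among them KRT18, CEACAM21 and ZNF667-AS1 below the line and FBXL7 and FOSB above it.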

How the data were processed

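RNA was sequenced from xenograft tumors, 5 per line and genotype, 20 in all. Per the submitters' processing notes, FastQC, fastp 0.20.1, STAR 2.7, featureCounts, edgeR and GRCh38 p7 were used; which step scaled the values is not given in the sources used here. The main file holds a score, the authors' deposited normalized counts, which come as whole numbers after scaling. No count model was therefore run, and depth is seen only through the normalized totals. The authors' deposited table of the comparison gives a log2 fold change and an adjusted p-value per gene, used only where named. Values were taken as log2(value + 1) and genes with at least 5 in at least 4 of the 9 libraries were fitted with limma 3.58.1 (R 4.3.3; trended variance, 1 mean per group, Benjamini-Hochberg adjustment), which understates the change of low genes. The code was tested on simulated data. Gene positions are from GENCODE 29 (GRCh38). Named genes were a fixed set, the 15 widest called protein-coding differences in each direction without overlap and with a mean of at least 200 in the higher group, up to 6 called members of each of 33 lists with the widest differences, and the 10 smallest p-values for the difference of line differences; a few genes under this rule are not reported here. Members and lists were chosen with earlier results of these data known. Alternatives were 2 other pseudocounts, 2 other filters, rescaling, shallow libraries kept, no trend, a replicate block, all 18 deep libraries in 1 fit, and each library left out.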

Additional observations from a re-analysis of the deposited data

Results flagged for a closer look

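A library was looked at again when its gap to the nearest library of its group was large against the range of the group by Dixon's 95% critical value, which chance passes in about 1 in 20 groups. Of 498 gene and group pairs, 32 were picked out, 10 of them in SJRH30 knockout replicate 4 and 6 in RD knockout replicate 2. Values are normalized counts. SJRH30 knockout replicate 1 was the highest of its group for NTN5 (23788) and CSAG1 (2). SJRH30 knockout replicate 1 was the lowest of its group for ACHE (5) and AMOTL2 (123). SJRH30 knockout replicate 3 was the highest of its group for PDGFRA (984), CTAG2 (2) and BMP7 (241). SJRH30 knockout replicate 4 was the highest of its group for NOS1 (15490), GLI3 (1526), MAML2 (540) and TP63 (234). SJRH30 knockout replicate 4 was the lowest of its group for POU4F1 (3584), MYCN (3756), GLI1 (283), PHLDA1 (286), ERVW-1 (3299) and MYL4 (185). RD knockout replicate 1 was the lowest of its group for RTL1 (9) and LIPE (249). RD knockout replicate 2 was the highest of its group for INHBE (26) and TRDN (1604). RD knockout replicate 2 was the lowest of its group for SHMT2 (1527), MDM2 (1343), EGR1 (1522) and THY1 (590). RD knockout replicate 3 was the highest of its group for MMRN2 (652) and BMP7 (912). RD knockout replicate 3 was the lowest of its group for FCRLA (4). RD knockout replicate 4 was the highest of its group for MEG8 (1817), CDH15 (5022), CDON (4280) and E2F1 (2614).

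The line difference, SJRH30 minus RD, itself differed between knockout and control tumors in 16 genes named in the text. The log2 difference of line differences, knockout minus control, passed a limma adjusted p below 0.05 with these values. It was positive for FBXL7 (2.96), MTARC1 (2.49), FOSB (3.07), ENSG00000229618 (3.49) and KLF4 (2.01). It was negative for NOTCH3 (-2.11), CHRNG (-2.42), KRT18 (-6.06), CEACAM21 (-4.05), ZNF667-AS1 (-3.67), SYCE1 (-3.06), ENSG00000227479 (-2.85), ASS1 (-1.84), KRT8 (-2.85), MYL4 (-2.97) and DPY19L4P2 (-5.89). Of these 16 calls, 12 were lost in at least 1 other setting. DPY19L4P2 passed the filter through the SJRH30 control libraries alone, so its call is no separate support.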

How the results depend on the processing

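The number of genes called between SJRH30 knockout and RD knockout tumors ranged from 9245 to 13548 when 1 library was left out, lowest without RD knockout replicate 2 and highest without SJRH30 knockout replicate 4. Under the other settings it ranged from 10837 to 12091. For control tumors the range was 13875 to 16991 with 1 library left out, and with the shallow libraries 5945 genes were called instead of 16724. Rescaling gave 6050 higher and 11783 lower in control tumors, against 7625 and 9099 without it. For the difference of line differences, 92 genes became 21 to 128 with 1 library left out, 4 with the shallow libraries and 35 without the variance trend. The causes were not tested. With the replicate number as a block, 11803 genes were called in knockout tumors, 17169 in control tumors and 19 for the difference of line differences. The labels do not say that a number marks a shared origin. Deviations of same-numbered knockout libraries correlated at -0.02, 0.15, 0.44 and 0.54. As 1 of the 4 was not above 0.1, the numbers were not taken as pairs. Still, 3 of 4 RD knockout libraries correlated best with the SJRH30 knockout library of their own number. In the other direction, 2 of SJRH30 knockout libraries 1 to 4 correlated best with their own number. Same-numbered control libraries correlated at 0.21, 0.08, 0.05 and -0.09. Any hint of pairs among the knockout libraries comes from the data and not from the design.

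Of 248 genes looked at by name, 227 were called and 203 of these kept their call in all 18 settings, while 24 lost it in at least 1. Of the 16 genes named for the difference of line differences, 12 lost their call in at least 1 setting. No called gene changed direction. Genes that were not called changed sign as follows. With the shallow libraries MYF5 was at 0.028, IGF2 at 0.011, H19 at 0.19, IGF2BP3 at -0.074, MTARC1 at 0.11 and FOSB at -0.18. After rescaling MYOG was at -0.048, IGF2BP3 at -0.087, DES at -0.17 and FOSB at -0.15, and with the replicate block DES was at -0.066. With 1 library left out, MYOG ranged from -0.16 to 0.32, MYF5 from -0.99 to 0.035, MYF6 from -1.73 to 0.75, H19 from -0.69 to 0.54, IGF2BP3 from -0.198 to 0.37, MYH8 from -2.25 to 0.42, DES from -0.066 to 0.15 and FOSB from -0.14 to 0.16. Among the lists, growth factor ligands had 5 higher and 14 lower after rescaling, calcium handling genes 3 higher, hedgehog genes 4 lower and endothelial markers 4 lower. Without RD knockout replicate 2, adhesion genes and immediate early genes each had 3 higher. Macrophage markers had 0 lower without that library or without SJRH30 knockout replicate 4. Without SJRH30 knockout replicate 4 endothelial markers had 2 lower and keratinocyte markers 1 higher. With the shallow RD knockout library, oncofetal genes had 2 lower and immediate early genes 5 lower. List medians also moved: with that library adhesion genes were at -0.30 and immediate early genes at -0.23, without SJRH30 knockout replicate 4 TCF/LEF and Wnt genes were at -0.30, and without RD knockout replicate 2 Notch genes were at -0.39. These list counts were chosen after seeing the data. Values are normalized and rounded, so differences of genes near 0 are the least certain.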

Other observations

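Whole chromosomes differed between the lines as well. Among 21292 placed genes with a mean of at least 50 in the 9 libraries, 23.9% were higher and 18.97% were lower in SJRH30 knockout tumors. Chromosome 13 had 200 of 384 genes higher in SJRH30 knockout tumors and 29 lower, with a median log2 difference of 0.78, and a median of 0.45 in control tumors. Chromosome 21 had 122 of 263 higher and 26 lower, with medians of 0.71 in knockout and 0.61 in control tumors. Chromosome 17 had 534 of 1312 higher and 148 lower, with medians of 0.55 and 0.86. On the lower side, chromosome 18 had 128 of 325 genes lower and 30 higher, with medians of -0.54 in knockout and -0.68 in control tumors. Chromosome 8 had 249 of 737 lower and 69 higher, with medians of -0.43 and -0.37, and chromosome 7 had 286 of 1092 lower (26.2%) and 84 higher (7.69%), with medians of -0.28 and -0.20. The median over all these genes was 0.09 in knockout tumors. Genome copies were not measured here.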
